A study of Schizosaccharomyces pombe with 2 samples.

Results

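The histone genes of the fission yeast Schizosaccharomyces pombe were followed at their poly(A) sites in 2 libraries, 1 from nmt1-SEB1 cells, whose seb1 gene is under the nmt1 promoter, and 1 from wild-type cells. The 10 genes were taken by symbol and are 10 of 5113 coding genes on the 3 nuclear chromosomes (12606 annotated genes of all kinds). They are hta1 and hta2 for histone H2A, htb1 for H2B, hht1, hht2 and hht3 for H3, hhf1, hhf2 and hhf3 for H4, and pht1 for the variant H2A.Z. Both cultures were labelled as grown in minimal medium containing thiamine, an agent that represses the nmt1 promoter. In its fields the labels describe nmt1-SEB1 both as a knock-out and, for the whole series, as a knockdown, and the name of the construct is used here. Total RNA was the starting material of both libraries. The only difference between the groups that the labels give is the promoter of seb1, and how long the promoter was repressed is not given in the sources used here.

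H2A, H2B, H3 and H4 form the core of the nucleosome, around which DNA is wrapped, and H2A.Z replaces H2A in some nucleosomes, often near promoters. In animals most histone mRNAs of S phase end in a stem-loop without a poly(A) tail, whereas yeast histone mRNAs are polyadenylated, so their 3′ ends can be read in a poly(A) site assay. Several S. pombe histone genes lie in head-to-head pairs that share the space between their starts, and a repeated AACCCT element in these promoters is known to be bound by the GATA-type factor Ams2. Seb1 binds RNA and is the S. pombe relative of budding yeast Nrd1; the question of the series is its part in forming 3′ ends and in selecting poly(A) sites.

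The library of nmt1-SEB1 had 3376142 poly(A) site-supporting reads and the wild-type library 2702105 reads. The histone genes took 18234 reads (0.549% of the reads in gene windows) in nmt1-SEB1 against 9727 reads (0.362%) in wild type. A gene window ran from the gene start to 1000 nt beyond its annotated end, and stopped earlier where another gene started on that strand. Levels are given as RPM, scaled to the reads in gene windows, where 1 read is worth 0.301 RPM in nmt1-SEB1 against 0.372 RPM in wild type. Each read marks 1 RNA 3′ end, so levels do not scale with gene length. The targeted gene, seb1 (SPAC222.09), had 826 reads (248.8 RPM) in nmt1-SEB1 against 1848 reads (687.2 RPM) in wild type, a ratio of 0.362 (95% interval 0.333 to 0.393). With 1 library per group there is no replicate check. Every interval and p-value compares the reads of these 2 libraries and covers counting error only, and fewer cells of a kind cannot be told apart from less RNA per cell.

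The pairs were the divergent genes hta1 and htb1 (177 nt apart), hht1 and hhf1 (132 nt), hht2 and hhf2 (134 nt), and hht3 and hhf3 (201 nt). hta2 and pht1 have no histone gene beside them. The direct repeat AACCCTAACCCT, searched on both strands from 250 nt before to 50 nt after each gene start, occurred in the promoters of 9 of 10 histone genes, all but pht1, and in 20 of 5113 coding promoters (0.391%). The single element AACCCT, which the repeat contains, was found in 496 of 5113 promoters (9.70%). Each pair held 1 copy of the repeat in the shared space, so 5 boxes lay at 9 genes. The boxes of 4 loci are shown because they are the sequence that the members of a pair have in common, with that of hta2 beside them. They were read from the RefSeq genome, whose chromosomes hold all read positions at the coordinates used here (assembly ASM294v2 per the submitters' notes), on the strand where the repeat reads as written, with the repeat in capitals. The boxes shown are at chrI:4053362-4053391 (minus strand) for hta2, chrI:4699643-4699672 (plus) for hht1 and hhf1, chrII:1365051-1365080 (minus) for hht2 and hhf2, and chrII:3529618-3529647 (plus) for hht3 and hhf3.
hta2: atccatcaaAACCCTAACCCTgtatattgc
hht1 and hhf1: ctgcatcaaAACCCTAACCCTgcttttgat
hht2 and hhf2: gtcaatcacAACCCTAACCCTgatttaaga
hht3 and hhf3: tttgatcacAACCCTAACCCTttaattaaa

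A match to the repeat is a description of the sequence and not evidence of binding. The letters before the repeat were alike too, with the run atca 1 letter before each of the 4 boxes shown.

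The 10 genes did not move together in read number. Of the 10, 2 (hht1 and hhf3) had a ratio of 2 or more with an interval that excluded 1, 1 (hht2) had a ratio of 0.5 or less, and 7 met neither limit. Among the 4738 coding genes with 20 or more reads, 26.0% were higher and 16.8% lower by the same rule, so neither count of histone genes stands far from that of other genes. The median log2 ratio was 0.17 over the histone genes and 0.21 over the coding genes.

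**Figure D1:**
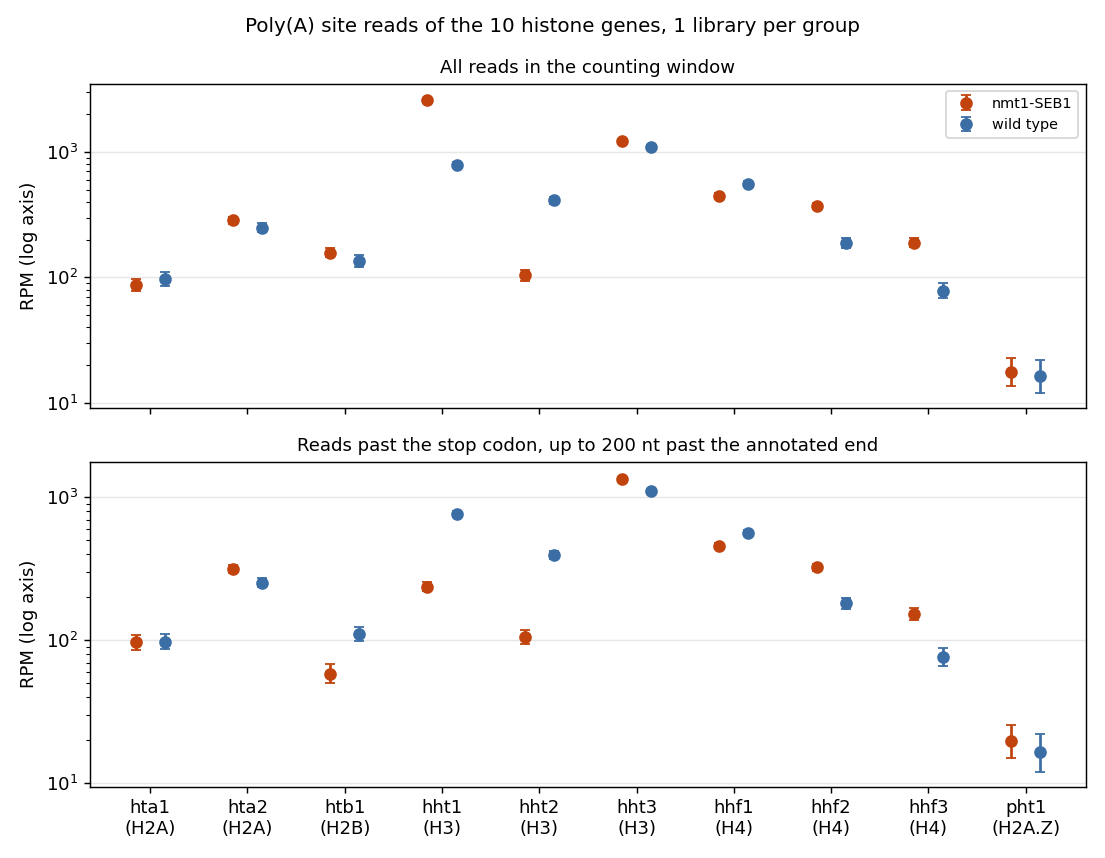
Levels of the 10 histone genes in nmt1-SEB1 and wild type, in RPM on a log axis, with exact Poisson 95% intervals. The upper panel counts all reads of the window and the lower panel the reads past the stop codon and up to 200 nt past the annotated end, scaled to reads counted the same way; hht1 is 3.31-fold higher in nmt1-SEB1 in the upper panel and stands at 0.308 times wild type in the lower one.

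Among the H3 genes, the ratios of the copies differed when all reads of the window were counted. These windows were unlike, reaching 1000 nt past the end of hht1, 30 nt past hht2 and 104 nt past hht3. hht1 (SPAC1834.04, chrI:4699732-4700560, plus strand) had 8681 reads (2615 RPM) in nmt1-SEB1 against 2128 reads (791 RPM) in wild type, a ratio of 3.31 (3.15 to 3.47). hht2 (SPBC8D2.04, chrII:1365119-1365818, plus strand) had 345 reads (104 RPM) in nmt1-SEB1 against 1107 reads (412 RPM) in wild type, a ratio of 0.252 (0.223 to 0.285). hht3 (SPBC1105.11C, chrII:3528800-3529565, minus strand) had 4033 reads (1215 RPM) in nmt1-SEB1 against 2944 reads (1095 RPM) in wild type, a ratio of 1.11 (1.06 to 1.16). Relative to the coding median, these are log2 differences of 1.52 for hht1, -2.19 for hht2 and -0.05 for hht3. Of the H3 reads, hht1 gave 66.5% (Wilson interval 65.7 to 67.3) in nmt1-SEB1 against 34.4% (33.3 to 35.6) in wild type, hht2 gave 2.64% in nmt1-SEB1 against 17.9% in wild type, and hht3 gave 30.9% in nmt1-SEB1 against 47.6% in wild type. The largest source of H3 reads was hht1 in nmt1-SEB1 and hht3 in wild type.

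The gain of hht1 lay in reads far past its annotated end. Of its reads, 7971 (91.8%) in nmt1-SEB1 against 77 (3.62%) in wild type lay over 200 nt beyond the annotated end. Counting to 200 nt only, hht1 had 710 reads in nmt1-SEB1 against 2051 in wild type, a ratio of 0.308 (0.282 to 0.336), so the direction turned. The windows of hht2 and hht3 still ended 30 and 104 nt past the gene, so their reads were unchanged. Under the new total the ratio of hht2 was 0.277 (0.245 to 0.313). Over these unlike windows near their annotated ends, hht1 and hht2 were both lower, with overlapping intervals. By that count hht1 gave 13.95% of the H3 reads in nmt1-SEB1 against 33.6% in wild type, while hht3 gave 79.3% in nmt1-SEB1 against 48.25% in wild type. The sum over the H3 genes was 3934 RPM in nmt1-SEB1 against 2298 RPM in wild type (ratio 1.71, interval 1.66 to 1.77) with the whole window, and the ratio was 0.742 with the 200-nt limit. Whether the far ends belong to RNAs that start at hht1 was not measured, since only RNA ends were read.

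**Figure D2:**
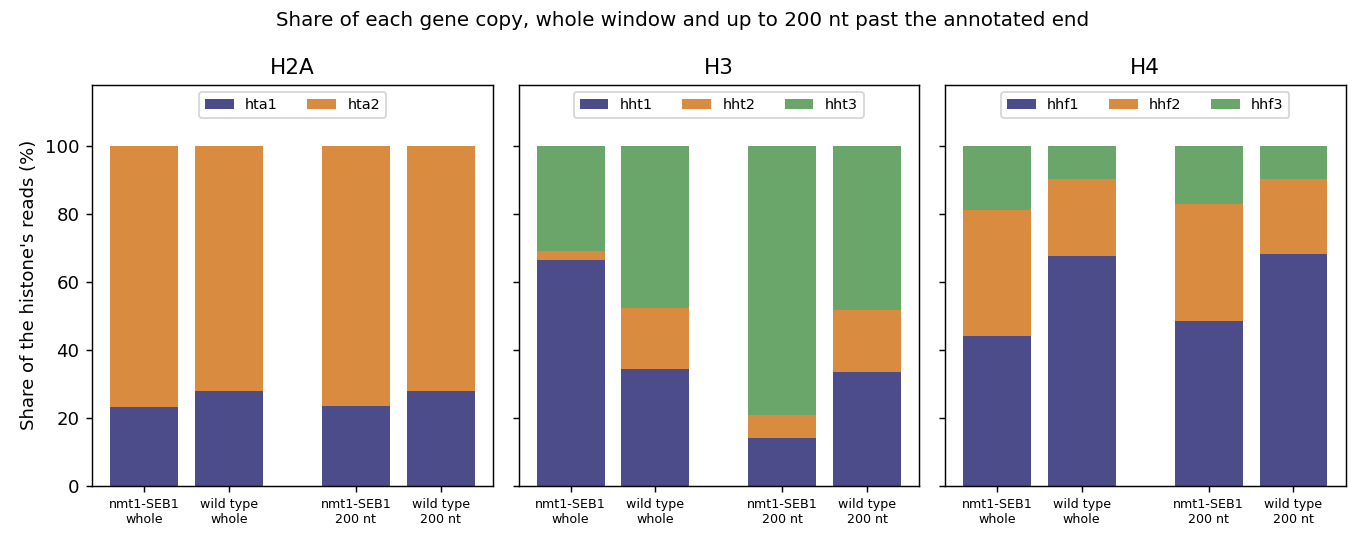
Share of the H2A, H3 and H4 reads given by each gene copy, in percent, in nmt1-SEB1 and wild type, with the whole counting window and with reads up to 200 nt past the annotated end. The hht1 share of H3 reads in nmt1-SEB1 is 66.5% in the first count and 13.95% in the second, while the wild-type bars differ little between the counts.

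The H4 genes shifted in share as well. hhf1 (SPAC1834.03C, chrI:4698773-4699599, minus strand) had 1482 reads (446 RPM) in nmt1-SEB1 against 1492 reads (555 RPM) in wild type, a ratio of 0.805 (0.748 to 0.865). hhf2 (SPBC8D2.03C, chrII:1364189-1364984, minus strand) had 1240 reads (374 RPM) in nmt1-SEB1 against 504 reads (187 RPM) in wild type, a ratio of 1.99 (1.80 to 2.22), just under the limit of 2. hhf3 (SPBC1105.12, chrII:3529767-3530388, plus strand) had 630 reads (190 RPM) in nmt1-SEB1 against 211 reads (78.5 RPM) in wild type, a ratio of 2.42 (2.07 to 2.84). Counting only reads past the stop codon and up to 200 nt past the end, the log2 ratio of hhf3 was 0.99, just under the limit. hhf1 gave 44.2% of the H4 reads in nmt1-SEB1 against 67.6% in wild type, hhf2 gave 37.0% in nmt1-SEB1 against 22.8% in wild type, and hhf3 gave 18.8% in nmt1-SEB1 against 9.56% in wild type. Summed over the H4 genes, the level was 1010 RPM in nmt1-SEB1 against 821 RPM in wild type (ratio 1.23, interval 1.17 to 1.30), but this sum changed sign with other scalings, so no direction is given. The window of hhf2 overlaps the lncRNA SPNCRNA.1432 on the same strand, and with each read given to the gene with the nearest 3′ end the hhf2 log2 ratio was 0.56. With lncRNA annotations ignored the hhf2 reads were the same, 1240 and 504. Its log2 ratio was then 1.08 and passed the limit only because the total of reads in gene windows had changed.

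With all reads of the window, the H2A, H2B and H2A.Z genes were nearer to parity. hta2 (SPAC19G12.06C, chrI:4052446-4053318, minus strand) had 951 reads (286 RPM) in nmt1-SEB1 against 672 reads (250 RPM) in wild type, a ratio of 1.15 (1.04 to 1.27). hta1 (SPCC622.08C, chrIII:1411144-1412181, minus strand) had 289 reads (87.1 RPM) in nmt1-SEB1 against 261 reads (97.1 RPM) in wild type, a ratio of 0.897 (0.756 to 1.06). hta2 was the main H2A gene in both libraries, with 76.7% of the H2A reads in nmt1-SEB1 against 72.0% in wild type. pht1 (SPBC11B10.10C, chrII:1502203-1503444, minus strand), which encodes the H2A.Z variant that the SWR1 complex places in chromatin, had 59 reads (17.8 RPM) in nmt1-SEB1 against 44 reads (16.4 RPM) in wild type, a ratio of 1.09 (0.72 to 1.64). It was the lowest of the 10 in both libraries.

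htb1 (SPCC622.09, chrIII:1412359-1413677, plus strand), the single H2B gene, had 524 reads (158 RPM) in nmt1-SEB1 against 364 reads (135 RPM) in wild type, a ratio of 1.17 (1.02 to 1.34). Many of these reads ended before the coding sequence, 255 (48.7%) in nmt1-SEB1 against 65 (17.9%) in wild type. The most-read of these positions were 10 nt before the start codon in nmt1-SEB1 against 18 nt before it in wild type. They lay 110 nt (nmt1-SEB1) and 102 nt (wild type) past the end of SPNCRNA.1194 (chrIII:1410745-1412364), a lncRNA on the htb1 strand that runs antisense to hta1. An RNA that ends before the start codon lacks the htb1 coding sequence. Past the stop codon, htb1 had 244 reads in nmt1-SEB1 against 297 in wild type, a log2 ratio of -0.59.

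The scaling sets the zero line of these ratios. With TMM factors the median log2 ratio of the coding genes moved by -0.66, and with median-of-ratios factors by -0.77. The split of coding genes was then 14.1% higher and 32.0% lower with TMM, and 12.5% higher and 35.4% lower with median-of-ratios. hta2, htb1, hht3 and pht1 changed sign under both, so no direction is given for them. Under TMM hht1 (log2 ratio 1.07) stayed above the 2-fold limit, hhf3 (0.62) did not, and hht2 (-2.64) stayed below. With median-of-ratios hht1 was at 0.96, hhf3 at 0.51, hht2 at -2.75, and hhf1 was called lower at -1.08. The shares of copies and the ratios within a pair do not depend on this choice. The summed levels do: with TMM factors the log2 ratio was 0.12 for the H3 sum and -0.36 for the H4 sum, and with median-of-ratios factors 0.01 for H3 and -0.47 for H4.

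The ratio of reads between the members of a divergent pair depended on the counting window in 2 of the 4 pairs. hht1 had 5.86 reads (5.54 to 6.19) per hhf1 read in nmt1-SEB1 against 1.43 (1.33 to 1.52) in wild type. With reads to 200 nt past the gene end only, it had 0.521 (0.475 to 0.571) in nmt1-SEB1 against 1.38 (1.29 to 1.47) in wild type, so the direction turned. hht2 had 0.278 (0.246 to 0.314) per hhf2 read in nmt1-SEB1 against 2.20 (1.98 to 2.45) in wild type. hht3 had 6.40 (5.88 to 6.97) per hhf3 read in nmt1-SEB1 against 13.95 (12.1 to 16.1) in wild type. hta1 had 0.552 (0.476 to 0.638) per htb1 read in nmt1-SEB1 against 0.717 (0.609 to 0.843) in wild type, with intervals that overlap. Past the stop codon only, hta1 had 1.18 (0.995 to 1.41) per htb1 read in nmt1-SEB1 against 0.875 (0.738 to 1.04) in wild type, again with overlapping intervals, so no direction is given for this pair. Under each of these counts the ratios of hht2 to hhf2 and of hht3 to hhf3 stayed lower in nmt1-SEB1 than in wild type. These recounts of the pairs were chosen after seeing the data.

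Poly(A) sites moved downstream in most of the histone genes, as in most coding genes. Reads past the stop codon were gathered into clusters of 24 nt either side of the most-read position, and the largest pair of clusters gave a proximal and a distal site. Of 9 histone genes tested, 8 had a higher distal share in nmt1-SEB1 and 0 a lower one, by Fisher's exact test (two-sided, Benjamini-Hochberg adjusted over all 2949 coding genes tested) with shares at least 10 points apart. Over the coding genes, 67.3% were higher and 3.97% lower. The exception was hhf2, and hta2 was not tested because 1 cluster held nearly all of its reads. With clusters placed and ranked on wild-type reads, the 4 genes htb1, hht1, hht3 and pht1 were called higher, and 50.8% of 2616 coding genes. A cluster could still reach the needed 5% of reads in either library. The distal hht1 site did so in nmt1-SEB1 only, with 0.377% of the wild-type reads past the stop codon. Among the 8 called in the main count, the distal sites of hht1, hta1 and hhf3 reached 5% in nmt1-SEB1 only. Calls at such sites follow in part from how the sites were chosen. The median difference in distal share was 18.7 points for the histone genes and 25.4 points for the coding genes.

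**Figure D3:**
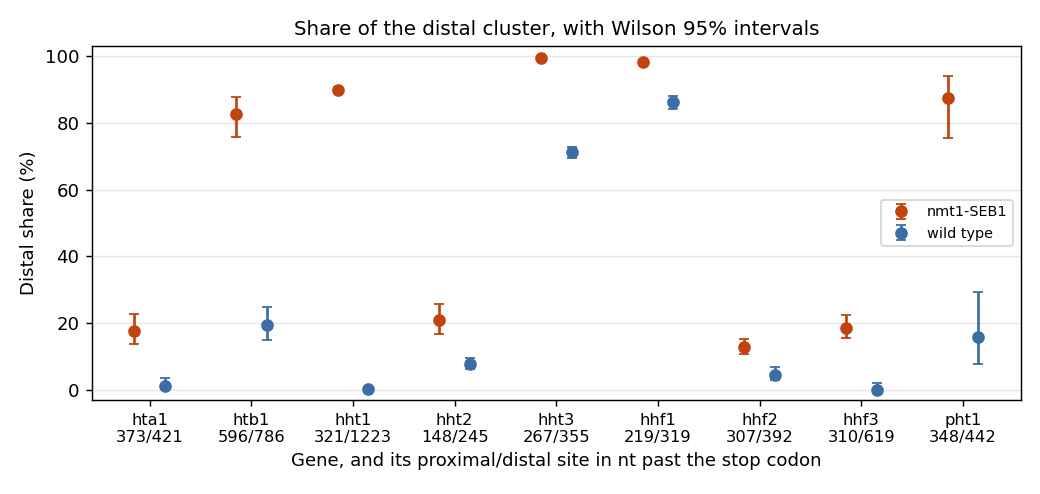
Share of the distal site among the reads of the proximal and distal clusters of 9 histone genes, in percent, in nmt1-SEB1 and wild type, with Wilson 95% intervals. Site positions in nt past the stop codon stand below each gene; the share is higher in nmt1-SEB1 in all 9, by 8.36 points in hhf2 and by 89.5 points in hht1.

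The largest difference was that of hht1. Its proximal site, 321 nt past the stop codon and at the annotated end, took 663 reads in nmt1-SEB1 against 1900 in wild type. Its distal site, 1223 nt past the stop codon, took 5896 reads in nmt1-SEB1 against 8 in wild type. The distal share was thus 89.9% (89.1 to 90.6) in nmt1-SEB1 against 0.419% (0.213 to 0.825) in wild type. Smaller clusters at 1076, 1192, 1264 and 1304 nt held 441, 446, 319 and 182 reads in nmt1-SEB1 against 2, 0, 0 and 0 in wild type. The distal site lies within SPNCRNA.4111 (chrI:4700667-4701511), which is annotated on the other strand and had 3 reads on its own strand in nmt1-SEB1 against 0 in wild type. The 30 nt that end at each site are shown because these sites carry the difference. They are from the plus strand at chrI:4700531-4700560 and chrI:4701433-4701462, with an AATGAA element, a variant of the poly(A) signal AATAAA, in capitals.
hht1 proximal: atgtacattAATGAAaactaatgacaacaa
hht1 distal: attgcgtgctatgttatctcatttttacaa

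In the 10 nt after the distal hht1 site the genome holds 0 A residues. After the distal sites of hta1, htb1 and pht1, 5 of the next 10 nt are A, and after those of the other genes 2 to 4, so a part of reads primed at genomic A residues was not tested there. The 30 nt before each cluster of the 10 genes matched the genome once, so reads of the H3 or H4 copies were not shared at their ends, although the H3 coding sequences are 88.3% to 92.7% identical and those of H4 91.3% to 93.3%.

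hht3 and htb1 moved over shorter distances, between sites that wild-type cells also used. In hht3 the site at 355 nt took 3958 reads in nmt1-SEB1 against 2036 in wild type, and the site at 267 nt took 30 in nmt1-SEB1 against 823 in wild type. Its distal share was 99.2% in nmt1-SEB1 against 71.2% in wild type (adjusted p = 3.03e-296, Fisher's exact test). With clusters of 10 nt either side, the largest pair of hht3 clusters differed by 0.47 points and was not called. In htb1 the site at 786 nt took 123 reads in nmt1-SEB1 against 45 in wild type, and the site at 596 nt took 26 in nmt1-SEB1 against 187 in wild type, giving distal shares of 82.6% in nmt1-SEB1 against 19.4% in wild type (adjusted p = 1.12e-34). A further htb1 cluster at 1412 nt held 41 reads in nmt1-SEB1 against 1 in wild type. These sites stand at chrIII:1413431-1413460 and chrIII:1413621-1413650 (plus strand) for htb1 and at chrII:3528852-3528881 and chrII:3528764-3528793 (minus strand) for hht3, printed as the 30 nt that end at each site; none of them holds AATAAA or AATGAA.
htb1 proximal: ggtttattaatggatttattattattatta
htb1 distal: taataataatataatattatgaaaagatca
hht3 proximal: aatgtatagaaatttttaattctctcttta
hht3 distal: tatttaatagtaaattaatttttaatatca

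In pht1 the site at 442 nt took 42 reads in nmt1-SEB1 against 7 in wild type, and the site at 348 nt took 6 in nmt1-SEB1 against 37 in wild type. The distal share was 87.5% (75.3 to 94.1) in nmt1-SEB1 against 15.9% in wild type (adjusted p = 5.63e-12). In hhf3 the site at 619 nt took 94 reads in nmt1-SEB1 against 0 of 181 in wild type. The wild-type count allows a share of up to 1.66%, and the share in nmt1-SEB1 was 18.7% (adjusted p = 8.01e-14, Fisher's exact test). This site passed the minimum cluster share through nmt1-SEB1 only, so its higher share follows in part from how it was chosen. With clusters placed and ranked on wild-type reads, the hhf3 pair lay at 281 and 310 nt and was not called. Its distal share was 96.7% in nmt1-SEB1 against 92.8% in wild type. In hhf3 the annotated end at 310 nt stayed the largest cluster in both libraries, with 409 reads in nmt1-SEB1 against 181 in wild type.
hhf3 proximal: atgattaatataatgttcattaaacccgaa
hhf3 distal: tcaaattgaatcagctcgatcgcatactta
pht1 proximal: tacgatttattaattttgaatttttccaaa
pht1 distal: aaatattcatatcactttcatcttgtaaaa

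These are from chrII:3530359-3530388 and chrII:3530668-3530697 (plus strand) for hhf3 and from chrII:1502294-1502323 and chrII:1502200-1502229 (minus strand) for pht1, in the same coordinates. They are printed because pht1 exchanged sites 94 nt apart while hhf3 added one. The other genes differed less. The distal share of hhf1 was 98.1% in nmt1-SEB1 against 86.1% in wild type (219 and 319 nt, adjusted p = 1.59e-31). That of hta1 was 17.8% in nmt1-SEB1 against 1.28% in wild type (373 and 421 nt, adjusted p = 1.47e-10), and that of hht2 20.9% in nmt1-SEB1 against 7.69% in wild type (148 and 245 nt, adjusted p = 4.42e-09). With clusters of 50 nt either side, hhf1, hta1 and hht2 were under 10 points apart. The distal hta1 site, too, passed the 5% limit through nmt1-SEB1 only, with 16.3% of the reads past the stop codon against 1.15% in wild type. For hhf2 the shares were 12.8% in nmt1-SEB1 against 4.47% in wild type (307 and 392 nt, adjusted p = 1.55e-06), under the limit of 10 points. Its first and last clusters, at 59 and 1072 nt, gave a distal share of 75.2% in nmt1-SEB1 against 13.0% in wild type. The last of these lies just past the end of SPNCRNA.1432, a lncRNA on the hhf2 strand whose own ends were not separated. hta2 kept its end, with 95.3% of reads in nmt1-SEB1 against 93.2% in wild type in the cluster at 470 nt.

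Poly(A) signal and TGTA motifs were counted near the sites. An AATAAA or AATGAA in the 50 nt before the site, on the gene's strand, was found at 3 of 9 proximal and 2 of 9 distal histone sites, and at 25.4% and 29.5% of the sites of all coding genes tested. TGTA in the 100 nt after the site, a search on the gene's strand, was found at 6 of 9 proximal and 7 of 9 distal sites, and at 62.1% and 58.2% of those of the coding genes. No match says only that these letters are not in the window.

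**Figure D4:**
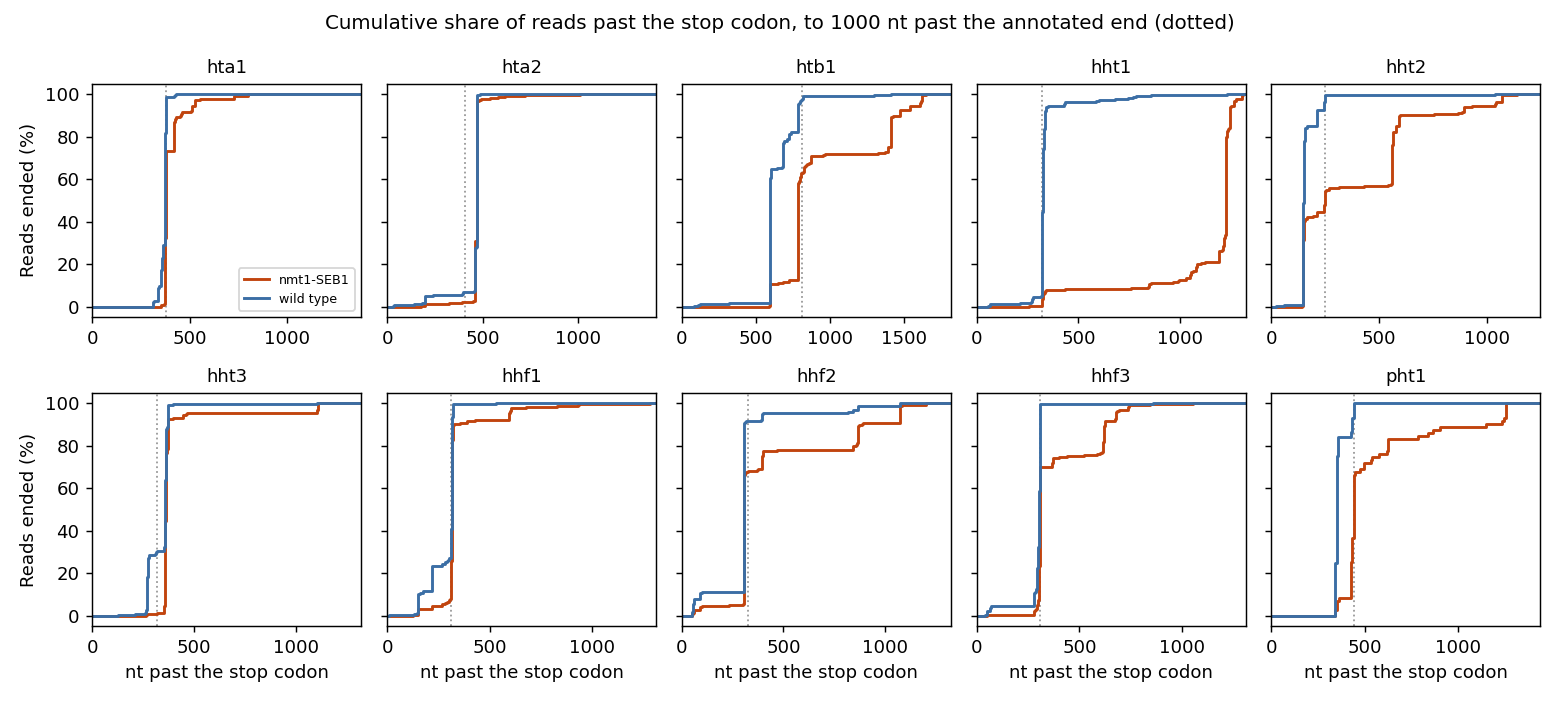
Cumulative share of reads past the stop codon of each histone gene, in percent, by distance from the stop codon in nt, in nmt1-SEB1 and wild type, up to 1000 nt past the annotated end (dotted line) and with lncRNA annotations ignored. In hht1, 91.8% of the nmt1-SEB1 reads end more than 200 nt past the dotted line; the nmt1-SEB1 curve of hta2 lies near that of wild type.

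The mean end of the reads past the stop codon moved 20 nt or more downstream in 8 of 10 histone genes, and in 74.3% of 3672 coding genes, while 2.83% moved as far upstream. The mean end of hht1 was 1125 nt past the stop codon in nmt1-SEB1 against 338 nt in wild type, a difference of 787 nt. That of htb1 was 961 nt in nmt1-SEB1 against 644 nt in wild type, a difference of 317 nt. That of hhf2 was 447 nt in nmt1-SEB1 against 309 nt in wild type, a difference of 138 nt. The hhf2 value includes reads within and just past the lncRNA SPNCRNA.1432, which were not separated. The differences were 99.7 nt in hhf3, 90.6 nt in pht1, 54.4 nt in hhf1, 26.7 nt in hta1 and 26.5 nt in hht3. hta2, at 468 nt in nmt1-SEB1 against 451 nt in wild type, and hht2, at 172 nt in nmt1-SEB1 against 162 nt in wild type, were under 20 nt apart. With lncRNA annotations ignored the difference was 222 nt in hht2, 202 nt in pht1 and 61.6 nt in hht3. The median difference was 72.5 nt in the histone genes and 65.9 nt in the coding genes.

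Reads also ended further downstream than the largest cluster. The read-through share, taken as reads over 200 nt beyond the largest cluster, was 10 points or more higher in 4 histone genes and in 34.6% of the coding genes, where genes with short windows were counted too. It was 28.3% (23.0 to 34.2) in nmt1-SEB1 against 0.673% in wild type for htb1, 24.9% (21.6 to 28.5) in nmt1-SEB1 against 0.488% in wild type for hhf3, and 22.0% (19.8 to 24.4) in nmt1-SEB1 against 4.37% in wild type for hhf2. For pht1 it was 10.2% (4.74 to 20.5) in nmt1-SEB1, from 6 reads, and 0% of 44 reads in wild type, which allows up to 6.82%. hhf1 had 8.04% in nmt1-SEB1 against 0.134% in wild type. The hhf2 reads counted here include clusters at 868 and 1072 nt, within and just past SPNCRNA.1432 on the same strand. Whether they belong to that lncRNA or to RNA that starts at hhf2 was not measured. For hht1, hht2, hht3 and hta1 the measure could give no reads, since their windows end before the point where read-through would begin. For hht1, whose largest cluster is the distal one, that point is 1423 nt past the stop codon and the window ends at 1321 nt. Over the 10 genes pooled, with the reads of these 4 in the total, the share was 3.48% (3.22 to 3.76) in nmt1-SEB1 against 0.282% (0.194 to 0.409) in wild type. Over the 6 genes that could give such reads it was 13.6% (12.7 to 14.6) in nmt1-SEB1 against 0.840% (0.578 to 1.22) in wild type. With lncRNA annotations ignored and hht1 left out, it was 11.1% in nmt1-SEB1 against 0.428% in wild type.

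The annotation also shortens 4 windows. Those of hta1, hht2, hht3 and pht1 end 191, 30, 104 and 187 nt past the gene, at the start of an annotated lncRNA on the same strand. With lncRNA annotations ignored, the read-through share of hht2 was 43.85% in nmt1-SEB1 against 0.190% in wild type, and its distal share, between 148 and 560 nt, was 40.1% in nmt1-SEB1 against 0% in wild type, where 0 of 888 reads allow up to 0.338%. By the same count the read-through share of pht1 was 25.4% (16.7 to 36.6), 18 of 71 reads, in nmt1-SEB1 against 0 of 44 reads in wild type. That of hht3 was 4.57% in nmt1-SEB1 against 0.102% in wild type, and that of hta1 was 2.36% in nmt1-SEB1 against 0 of 260 reads in wild type. The lncRNA after hht2, SPNCRNA.5148 (chrII:1365849-1367362), had 1383 reads in nmt1-SEB1 against 11 in wild type, and that after hht3, SPNCRNA.1610, had 354 in nmt1-SEB1 against 27 in wild type. Whether these reads belong to the lncRNA or to RNA that starts at the histone gene was not measured. Counted to 1000 nt past its end, which takes in only a part of these reads, hht2 stayed lower. It had 592 reads in nmt1-SEB1 against 1109 in wild type (log2 ratio -1.12). From 31 to 2000 nt past its end there were 1625 reads in nmt1-SEB1 against 11 in wild type. Whether hht2 stays lower thus depends on how many of the reads past its end are counted.

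Several of the histone genes face another gene at their 3′ end. The annotated end of htb1 overlaps that of the exocyst gene sec5 by 258 nt, and the end of hht3 overlaps that of the gene rav1 by 46 nt. In hht3, 99.4% of the reads in nmt1-SEB1 against 81.6% in wild type ended inside rav1. In hhf1, which lies 166 nt from the shikimate pathway gene aro1, 119 reads (8.03%) in nmt1-SEB1 against 2 (0.134%) in wild type ended inside aro1. For htb1 the share inside sec5 was 46.6% in nmt1-SEB1 against 80.2% in wild type, beside the larger number of reads before its coding sequence. The reads of hht1 had no convergent coding gene in reach, since the next one, pmo25, ends 3927 nt away. The distal hht1 site does lie within the lncRNA SPNCRNA.4111, which is annotated on the other strand.

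Reads on the opposite strand within the gene were compared where the libraries together held 20 or more. This was so for 3 histone genes, of which 2 met the 2-fold limit as higher and 0 as lower, against 64.8% higher and 5.43% lower of 3259 coding genes. hht3 had 343 opposite-strand reads in nmt1-SEB1 against 87 in wild type (ratio 3.19, 2.52 to 4.09). hhf3 had 39 in nmt1-SEB1 against 5 in wild type (ratio 6.32, 2.49 to 20.5). htb1 had 128 in nmt1-SEB1 against 132 in wild type (ratio 0.786, 0.611 to 1.01). Since rav1 ends inside hht3 and sec5 inside htb1, ordinary 3′ ends of these neighbours can be among the reads counted, and they were not separated. The remaining genes had few: pht1 had 19 in nmt1-SEB1 against 0 in wild type, hhf1 had 11 in nmt1-SEB1 against 0 in wild type, hta1 had 6 in nmt1-SEB1 against 9 in wild type, hhf2 had 0 in nmt1-SEB1 against 3 in wild type, and hht1 had 1 in nmt1-SEB1 against 0 in wild type, while hta2 and hht2 had 0 in both.

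Genes that supply or deposit histones were counted as a list chosen with earlier results known. Of 29 listed, 28 matched and all 28 had enough reads: 8 were higher and 6 lower, where 26.0% of the coding genes were higher and 16.8% lower, and the median log2 ratio was 0.02, against 0.21 over the coding genes. Of 18 tested for the distal share, 13 were higher and 2 lower, where the coding shares were 67.3% and 3.97%. ams2, for the GATA-type factor that acts on histone promoters, had 327 reads in nmt1-SEB1 against 245 in wild type (log2 ratio 0.11), and was among the 13 with a higher distal share. cnp1, for the centromeric H3 variant, had 50 reads in each library (log2 ratio -0.30). The largest differences were those of hip1, for a subunit of the HIRA chaperone, with 183 reads in nmt1-SEB1 against 24 in wild type (log2 ratio 2.63), and swc2, for a subunit of the SWR1 complex, with 207 reads in nmt1-SEB1 against 28 in wild type (2.58). pcf2, for a subunit of the chromatin assembly factor CAF-1, had 15 reads in nmt1-SEB1 against 54 in wild type (-2.15), and scm3, for the chaperone of Cnp1, had 64 reads in nmt1-SEB1 against 12 in wild type (2.11).

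S phase genes of the MBF transcription factor gave another list. Of 18 matched, 16 had enough reads: 5 were higher and 1 lower, with a median log2 ratio of -0.24, where 26.0% of the coding genes were higher and 16.8% lower. The distal share was higher in 5 of 8 tested and lower in 0, where 67.3% of the coding genes were higher and 3.97% lower. suc22, for the small subunit of ribonucleotide reductase, had 206 reads in nmt1-SEB1 against 34 in wild type (log2 ratio 2.30). nrm1, for the corepressor of MBF, had 1038 reads in nmt1-SEB1 against 207 in wild type (log2 ratio 2.02). The ratios of both lists count the whole window. The distal share of nrm1 was 73.9% in nmt1-SEB1 against 4.26% in wild type, and its mean end lay 491 nt further downstream in nmt1-SEB1.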

How the data were processed

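The deposited values are counts of poly(A) site-supporting (PASS) reads per genomic position and strand, made by the authors with no normalization. Per the labels' protocol text, reads were expressed as RPM, but the deposited values are whole numbers with unequal sums and were used as counts. Per the submitters' processing notes, reads were aligned with Bowtie2 to ASM294v2; no source used here names read filters or molecular identifiers. Gene models and sequence came from RefSeq (header ASM294v3); all deposited nuclear positions fall within its chromosomes. Positions were found to count from 1, since 84.6% to 88.8% of positions with 5 or more reads hold an A. Reads on other contigs (3026 in nmt1-SEB1 and 4152 in wild type) were left out.

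Read ratios carry exact conditional binomial (Clopper-Pearson) 95% intervals, shares carry Wilson 95% intervals, and distal shares were tested with Fisher's exact test, adjusted by the Benjamini-Hochberg method. A gene needed 20 reads in both libraries together for its ratio and 20 in each library for its sites, and each cluster 5% of reads in at least 1 library. Alternatives used TMM from edgeR 4.0.16 and size factors from DESeq2 1.42.0 in R 4.3.3, other windows, cluster widths, minimums and thinning; the rest was computed in Python 3.11.15 and tested on simulated data. The members and the gene lists were chosen with earlier results of these data known. Named genes were all 10 histone genes, seb1, their neighbours reached by reads, and, of the 2 lists, cnp1, ams2 and the 4 and 2 called genes with the largest change. The promoter box sequence of 1 gene pair is not reported here.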

Additional observations from a re-analysis of the deposited data

Results flagged for a closer look

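Reads that lie past the counting windows, which the main comparisons leave out, were more numerous in nmt1-SEB1 than in wild type downstream of all 10 histone genes. For 7 of them the libraries together held 20 or more such reads and the interval of the ratio excluded 1. Downstream of hht2, from 31 to 2000 nt past its annotated end, there were 1625 such reads in nmt1-SEB1 against 11 in wild type. Downstream of hhf1 there were 466 reads in nmt1-SEB1 against 7 in wild type, of hht1 398 in nmt1-SEB1 against 4 in wild type, of hht3 358 in nmt1-SEB1 against 27 in wild type, and of htb1 284 in nmt1-SEB1 against 3 in wild type. For hta2 there were 46 in nmt1-SEB1 against 4 in wild type, and for hhf3 34 in nmt1-SEB1 against 1 in wild type. The others were hta1, with 13 in nmt1-SEB1 against 0 in wild type, pht1, with 12 in nmt1-SEB1 against 0 in wild type, and hhf2, with 34 in nmt1-SEB1 against 18 in wild type and a ratio of 1.53 (0.84 to 2.88). The share of coding genes with such a difference was not computed, so nothing here is particular to the histone genes. Which RNA these ends belong to was not measured.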

How the results depend on the processing

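The 2 higher calls became 1 with TMM factors, 0 with median-of-ratios factors, 1 with reads to 200 nt past the gene end, 0 with that limit and reads past the stop codon only, and 3 (hht1, hhf2 and hhf3) with lncRNA annotations ignored. The coding genes called higher were 26.0%, 14.1%, 12.5%, 24.2%, 23.2% and 31.0% in the same order from the first count on, and those called lower 16.8%, 32.0%, 35.4%, 18.2%, 20.5% and 13.1%. The 1 lower call became 2 with median-of-ratios factors and with both 200-nt limits. The log2 ratio of hht1 reversed to -1.70 with either 200-nt limit. The 8 higher distal shares became 4 with clusters placed and ranked on wild-type reads (50.8% of 2616 coding genes higher), where the distal difference of hht2 reversed to -3.46 points. They stayed at 6 to 8 under the other alternatives (61.1% to 73.6% of coding genes). The mean end was 20 nt or more further downstream in 6 to 9 genes, and in 64.3% to 80.7% of coding genes over the same settings.

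The pooled read-through share, 3.48% in nmt1-SEB1 and 0.282% in wild type, was 3.88% and 0.427% more than 100 nt past the largest cluster, 48.0% and 1.08% more than 200 nt past the annotated end, and 5.89% in nmt1-SEB1 with lncRNA annotations ignored. The hht1 share of H3 reads in nmt1-SEB1 was 13.95% with reads to 200 nt past the end, 14.0% with that limit and reads past the stop codon only, and 63.8% with lncRNA annotations ignored; the hhf1 share of H4 reads was 48.5% and 48.9% with the first 2 of these. Apart from the windows and scalings, which act by their own construction, the cause was not tested. The combined limit, the assignment to the nearest 3′ end, the read-through share over 6 genes and the scaled histone sums were chosen after seeing the data. No paired analysis was possible because each group has 1 library, and no library could be left out. Depth limits pht1 most, with 59 reads in nmt1-SEB1 against 44 in wild type.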
